A study of Mus musculus with 6 samples.

Results

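The genes described here belong to families of enzymes that write or remove chemical marks on histones and DNA, though not every member need do so. They were chosen by name, as the rows of the deposited expression table whose symbol begins with Kdm, Kmt, Hdac, Sirt, Dnmt, Ezh, Suv, Kat or Prmt followed by a digit, or with Setd, or is Tet1, Tet2 or Tet3. The rule found 81 of the 21878 genes in the table, and 71 of these had expression values high enough to be tested.

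All libraries were made from the mouse embryo fibroblast line NIH3T3, labelled with a radiation injury in both groups and sampled at 72 h. In 3 libraries the cells had been treated with exosomes, which the series title calls plasma-derived, and in 3 they had been given phosphate-buffered saline (PBS). The labels give no radiation dose and no plasma species, a single cell line stands for the wound, and the labels do not say whether replicate libraries are from different cultures. P-values here reflect library-to-library spread, part or all of which may be technical. Expression values are in FPKM, which corrects fragment numbers for transcript length and sequencing depth, a unit inferred for columns whose headers say only expression.

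Histone lysines carry methyl and acetyl groups that different enzymes add and remove. Acetyltransferases (KAT) and deacetylases (HDAC and the NAD-dependent sirtuins) act in opposition. Lysine methyltransferases (KMT, SETD, EZH and SUV) are opposed by the flavin-dependent KDM1 enzymes and by the Jumonji C (JmjC) demethylases. The JmjC enzymes, like the TET enzymes that oxidise methylated cytosine, need iron, oxygen and 2-oxoglutarate. DNMT enzymes methylate cytosine in DNA, and PRMT enzymes methylate arginine.

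The deposited group means of normalized counts summed to 19824812 with exosomes and 20341541 with PBS, and a library had 10080 to 10271 genes at or above 1 FPKM. All 13 listed fibroblast markers averaged at least 1 FPKM, and their sum lay between 7969 and 8257 FPKM with exosomes and between 6745 and 7145 with PBS. The markers did not all differ in the same direction, since the collagen gene Col1a1 averaged 782 FPKM with exosomes and 450.03 with PBS, and the fibronectin gene Fn1 748 FPKM with exosomes and 919 with PBS. Of 12 leukocyte markers measured, 5 were at 0 in all libraries, including the T cell gene Cd3e, and the summed level was 1.85 to 2.66 FPKM with exosomes and 3.47 to 4.83 with PBS. That sum was mostly Csf1r, at 0.382, 0.254 and 0.249 FPKM with exosomes and 1.77, 0.759 and 3.22 with PBS, and Cd68, at 1.44, 1.91 and 2.08 FPKM with exosomes and 1.54, 2.64 and 1.53 with PBS. The groups were apart for Csf1r and overlapped for Cd68. Summed erythroid markers (5 genes, of which Alas2 was at 0 in all libraries) reached at most 1.33 FPKM with exosomes and 0.563 with PBS. Summed platelet markers were 3.28 to 4.18 FPKM with exosomes and 2.63 to 4.43 with PBS (6 genes, of which Gp9, Gp1ba and Gp6 were at 0). In that sum Itga2b was 2.93, 2.705 and 2.76 FPKM with exosomes and 1.57, 2.36 and 1.77 with PBS, with the groups apart. Ppbp, at 1.25, 0.574 and 0.817 FPKM with exosomes and 0.980, 2.07 and 0.858 with PBS, overlapped. Endothelial markers summed to 2.12 to 3.38 FPKM with exosomes and 1.94 to 2.65 with PBS, and epithelial markers to 0.310 to 0.374 with exosomes and 0.372 to 0.548 with PBS. The part of other cell types in the changes below was not tested, and in bulk RNA fewer expressing cells and less RNA per cell cannot be told apart.

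Most chromatin enzyme genes did not pass the test, and those that did moved by less than 2-fold. With exosomes 19 of the 71 tested members were raised, 5 were lowered and 47 did not pass (limma on log2(FPKM + 1), Benjamini-Hochberg adjusted p under 0.05 over all 10274 genes tested). The same test called 43.8% of all tested genes, 25.4% raised and 18.4% lowered, against 33.8% of the members, 26.8% raised and 7.04% lowered. The median log2 change was 0.04 for the members and 0.04 for all tested genes, and the median absolute change was 0.11 and 0.15. The 3 exosome values lay wholly above or wholly below the 3 PBS values in 35 of 71 members, or 49.3%, against 55.6% of all tested genes. Ratios of mean FPKM of called members ranged from 0.605 to 1.75.

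The 5 lowered genes belonged to 4 families. They were Kdm3a, Dnmt1, Setd1a, Prmt6 and Kmt5a. Raised genes were found in 10 of the 12 families used here, with Hdac11, Kat2b, Hdac4 and Sirt3 showing the largest rises. The family counts below stand beside 25.4% raised and 18.4% lowered of all tested genes. In a mouse annotation the exons of 10 called members overlap those of another gene, so that part of their signal could belong to the neighbour. They are Hdac11, Hdac4, Hdac5, Kdm1b, Prmt2, Prmt6, Prmt7, Setd1a, Setd7 and Sirt3. The overlaps are unlike, since Hdac5 and Prmt2 overlap only a microRNA gene. Kdm1b, Prmt7, Setd1a and Sirt3 overlap protein-coding genes, and that of Setd1a is on the same strand. The TET and class IIb HDAC families had 0 called members, and the class I HDACs 0 apart from the class IV enzyme Hdac11 grouped with them. Hdac8 of class I did not reach 1 FPKM and was not tested. Its deposited mean normalized counts were 305 with exosomes and 202 with PBS, above those of the tested Sirt3 (99.2 and 65.1). Its low FPKM is therefore uncertain. The authors' deposited table calls both Hdac8 and Tet2 higher.

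**Figure D1:**
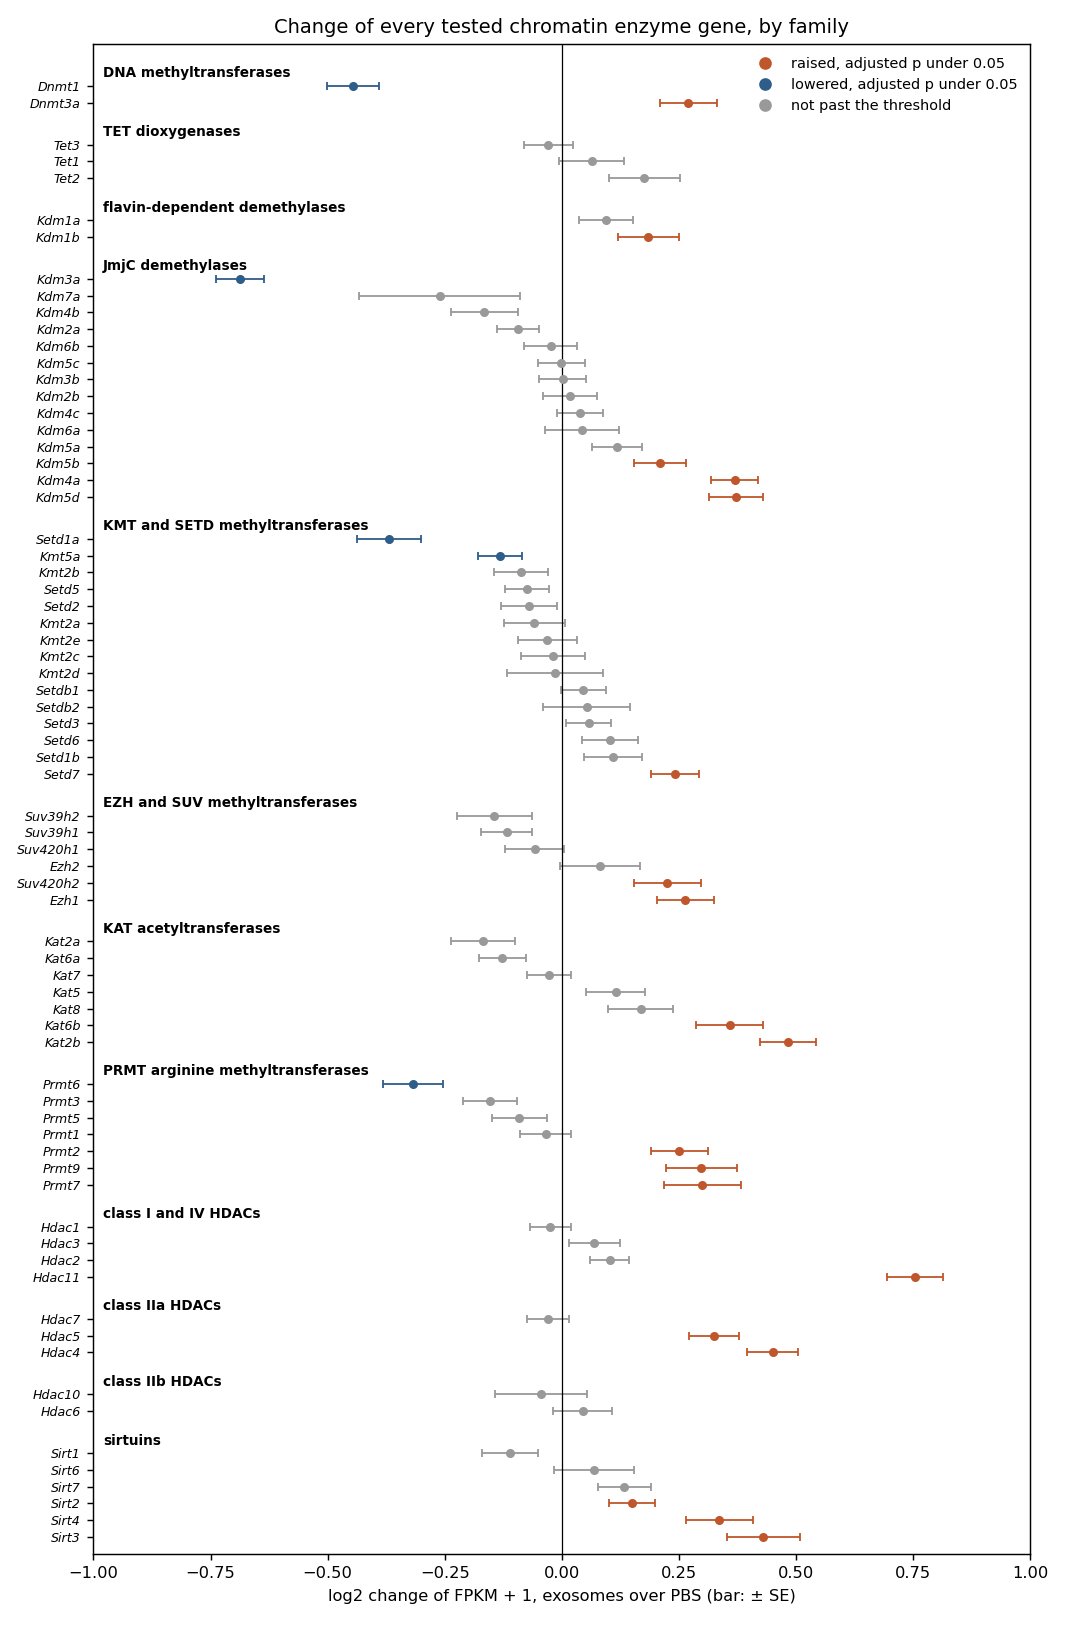
Log2 change of FPKM + 1, exosomes over PBS, for each of the 71 tested members by enzyme family, with points for the estimate and bars for ± SE. Orange points were raised (19), blue points lowered (5) and grey points not past the threshold (47). Kdm3a (−0.69) and Hdac11 (0.75) lie farthest from 0.

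Kdm3a (Entrez 104263), a JmjC enzyme that removes methyl groups from lysine 9 of histone H3 and a well known target of hypoxia-inducible factor, showed the largest fall. It had 14.5, 14.9 and 14.2 FPKM with exosomes, against 23.5, 25.4 and 23.1 FPKM with PBS. Every exosome library lay below every PBS library, and both groups were tight. The log2 change was −0.69 ± 0.05 (SE, limma adjusted p = 1.09e-05). Its close relative Kdm3b, which has the same substrate, was 9.85 ± 0.433 FPKM with exosomes, against 9.84 ± 0.146 with PBS (SD, n = 3 each, log2 change 0.00 ± 0.05).

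Hdac11 (Entrez 232232), the class IV deacetylase, which is also known to remove long fatty acyl groups, showed the largest rise. Its values were 17.6, 16.8 and 17.6 FPKM with exosomes, against 9.75, 10.7 and 9.21 with PBS, with no overlap. The log2 change was 0.75 ± 0.06 (adjusted p = 1.65e-05).

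The promoters of these 2 genes, which moved farthest in opposite directions, are shown as 300 bases from 250 before to 50 after the gene start, from RefSeq (GRCm38.p6). Capitals mark the core letters of the hypoxia response element, ACGTG or GCGTG on either strand. ACGTG is also contained in the E-box CACGTG. The Kdm3a window is chr6:71632868-71633167 on the minus strand, and the Hdac11 window is chr6:91156565-91156864 on the plus strand.
Kdm3a: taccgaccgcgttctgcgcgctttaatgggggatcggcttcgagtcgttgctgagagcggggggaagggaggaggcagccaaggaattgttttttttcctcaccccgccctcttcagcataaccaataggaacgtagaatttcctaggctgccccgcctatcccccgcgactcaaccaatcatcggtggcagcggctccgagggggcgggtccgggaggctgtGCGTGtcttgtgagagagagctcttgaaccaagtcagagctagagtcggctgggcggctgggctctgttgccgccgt
Hdac11: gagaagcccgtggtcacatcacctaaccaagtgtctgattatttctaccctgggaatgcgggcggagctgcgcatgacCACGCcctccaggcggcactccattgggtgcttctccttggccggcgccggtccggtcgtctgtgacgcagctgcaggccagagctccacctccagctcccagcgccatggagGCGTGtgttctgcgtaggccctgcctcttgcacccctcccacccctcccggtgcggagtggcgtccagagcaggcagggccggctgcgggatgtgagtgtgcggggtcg
Kdm3a held 1 match, beginning at position −27 relative to the gene start, and Hdac11 held 2, beginning at −172 and −59. RefSeq gave such a window for 69 of the 81 members, with the same window for Setdb2 and Setdb2-phf11c. The core was present in 39 of these 69 windows, or 56.5%, and in 43.8% of all 27025 promoters. The latter include promoters of genes too low to be tested here, so the 2 shares are not of like sets. It was present in 13 of 19 windows of raised members, in 1 of 5 of lowered members (that of Kdm3a) and in 21 of 35 of members that did not pass. The E2F core TTCCCGC or TTGGCGC, on either strand, was found in 6 of the 69 members (8.70%) and 6.93% of all promoters, and the AP-1 site TGACTCA or TGAGTCA in 3 members (4.35%) and 5.17% of all promoters. Such matches describe letters in a window and not bound sites.

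Among the DNA methyltransferases the maintenance enzyme fell and the de novo enzyme Dnmt3a rose. Dnmt1 (Entrez 13433), which copies methylation onto newly made DNA, had 12.7, 13.2 and 13.6 FPKM with exosomes, against 19.5, 17.5 and 17.9 with PBS. All exosome values were below all PBS values, and the log2 change was −0.45 ± 0.05 (adjusted p = 0.000246). Dnmt3a, which methylates unmethylated sites, was 4.40, 4.86 and 4.68 FPKM with exosomes, against 3.70, 3.83 and 3.52 with PBS (log2 change 0.27 ± 0.06, adjusted p = 0.00615). The groups did not overlap, and the change was smaller than that of Dnmt1 in size. Dnmt3b and the catalytically inactive cofactor Dnmt3l were below 0.5 FPKM in every library and were not tested.

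The TET dioxygenases, which start the removal of DNA methylation, did not pass the test made here. Tet3 was the most abundant, at 6.83 ± 0.266 FPKM with exosomes and 6.99 ± 0.168 with PBS. Tet2 was 1.58, 1.93 and 1.90 FPKM with exosomes, against 1.44, 1.60 and 1.40 with PBS (log2 change 0.18 ± 0.08, adjusted p = 0.0841, and 0.0434 without exosome replicate 1). The authors' deposited table calls Tet2 higher, with a fold of 1.18 (adjusted p = 0.0434). Tet1 was 1.37 ± 0.115 with exosomes and 1.27 ± 0.0593 with PBS.

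The 14 tested JmjC demethylases had 3 raised and 1 lowered member, with a median log2 change of 0.01. Kdm4a (Entrez 230674), which acts on lysines 9 and 36 of histone H3, rose. It had 24.6, 25.5 and 25.3 FPKM with exosomes, against 19.2, 20.2 and 18.3 with PBS (log2 change 0.37 ± 0.05, adjusted p = 0.000408). Its relatives Kdm4b and Kdm4c did not pass. Kdm4b was 6.13 ± 0.390 FPKM with exosomes, against 7.00 ± 0.676 with PBS (adjusted p = 0.0901), and Kdm4c was 11.2 ± 0.325 with exosomes, against 10.8 ± 0.333 with PBS (adjusted p = 0.546). KDM4B and KDM4C, like KDM3A, are known hypoxia-inducible genes in human cells. The authors' deposited table calls Kdm4b lower, with a fold of 0.798 (adjusted p = 0.0346).

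Within the KDM5 group, which removes methyl groups from lysine 4 of histone H3, a pair of members rose. Kdm5d (Entrez 20592), the Y-linked copy, had 4.64, 4.91 and 4.73 FPKM with exosomes, against 3.43, 3.32 and 3.60 with PBS (log2 change 0.37 ± 0.06, adjusted p = 0.000916). Its X-linked counterpart Kdm5c was 10.03 ± 0.199 FPKM with exosomes, against 10.04 ± 0.360 with PBS (adjusted p = 0.991). The 2 copies resemble each other, so how reads were split between them is uncertain. Kdm5b was 14.7, 15.2 and 15.1 FPKM with exosomes and 12.4, 13.9 and 12.3 with PBS (log2 change 0.21 ± 0.06, adjusted p = 0.0128, but 0.055 without PBS replicate 1). Kdm5a was 9.17 ± 0.374 with exosomes, against 8.37 ± 0.293 with PBS (adjusted p = 0.0992).

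The lysine 27 demethylases Kdm6a and Kdm6b and the lysine 36 demethylases Kdm2a and Kdm2b did not pass, with changes between −0.09 and 0.04 on the log2 scale. Kdm6b, an inducible gene in inflammatory signalling, was 7.21 ± 0.219 FPKM with exosomes, against 7.35 ± 0.442 with PBS (adjusted p = 0.752). Kdm7a had the widest spread of all tested members, at 9.12, 9.07 and 7.21 FPKM with exosomes and 9.48, 8.24 and 13.9 with PBS. Its groups overlapped, and PBS replicate 3 was the highest library (log2 change −0.26 ± 0.17, adjusted p = 0.257). Kdm4d and Kdm8 were not tested because they did not reach 1 FPKM in 3 libraries. Of the flavin-dependent enzymes, Kdm1a (LSD1) was 14.8 ± 0.561 FPKM with exosomes, against 13.8 ± 0.895 with PBS (adjusted p = 0.207). Kdm1b was 3.25 ± 0.127 with exosomes, against 2.74 ± 0.190 with PBS (adjusted p = 0.0437), a call at the edge of the threshold. It ended when any library other than PBS replicate 2 was left out (adjusted p = 0.0608 to 0.135).

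The 21 tested genes grouped by name as lysine methyltransferases (KMT, SETD, EZH and SUV) held 3 raised and 2 lowered members. Setd1a (Entrez 233904), the catalytic subunit of a COMPASS complex that methylates lysine 4 of histone H3 at active promoters, fell. It had 9.86, 9.81 and 9.28 FPKM with exosomes, against 12.9, 11.5 and 13.9 with PBS, so that all exosome libraries were lower. The log2 change was −0.37 ± 0.07 (adjusted p = 0.00227). Its relative Setd1b was 3.54 ± 0.113 FPKM with exosomes, against 3.21 ± 0.196 with PBS (log2 change 0.11 ± 0.06, adjusted p = 0.185).

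The large MLL-type genes Kmt2a to Kmt2e did not pass, with changes between −0.09 and −0.01, although the authors' deposited table calls Kmt2b lower, with a fold of 0.881 (adjusted p = 0.0422). These 5 genes and Setd2 and Setd5, a group picked after the values were seen, were highest in replicate 2 among the exosome libraries, as were 35 of all 71 tested members. Kmt2e, for example, had 14.2, 15.6 and 13.1 FPKM with exosomes and 14.2, 14.5 and 15.2 with PBS. Among the PBS libraries 36 of the 71 members were highest in replicate 2. The matching shares over all tested genes were not computed, so no trait of the members follows. Setd7, which adds a single methyl group to lysine 4, rose to 16.4 ± 0.860 FPKM with exosomes, against 13.7 ± 0.0821 with PBS (log2 change 0.24 ± 0.05, adjusted p = 0.0044). Setd2, the enzyme for trimethylation of lysine 36, was 8.45 ± 0.619 FPKM with exosomes, against 8.91 ± 0.284 with PBS (adjusted p = 0.364).

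The Polycomb enzymes EZH1 and EZH2 methylate lysine 27 of histone H3, EZH2 mainly in dividing cells. Ezh1 rose, at 3.59, 3.95 and 3.81 FPKM with exosomes, against 3.01, 3.05 and 2.88 with PBS (log2 change 0.26 ± 0.06, adjusted p = 0.0067). Ezh2 was 7.08, 7.76 and 7.37 FPKM with exosomes and 7.79, 7.25 and 5.90 with PBS, with overlapping groups (adjusted p = 0.465). The lysine 9 methyltransferases Suv39h1, Suv39h2, Setdb1 and Setdb2 did not pass. Suv39h1 was 5.42 ± 0.232 FPKM with exosomes, against 5.96 ± 0.0507 with PBS (adjusted p = 0.104), and the authors' deposited table calls it lower with a fold of 0.850 (adjusted p = 0.039). Setdb2 is uncertain. It was listed at 1.89 ± 0.244 FPKM with exosomes and 1.79 ± 0.272 with PBS, while the authors' deposited table gives mean normalized counts of 0.343 with exosomes and 2.79 with PBS, and a read-through gene named Setdb2-phf11c, listed at 0.0173 FPKM with exosomes and 0.256 with PBS, has its own row.

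Enzymes for lysine 20 of histone H4 went in both directions. Kmt5a, which adds the first methyl group during the cell cycle, was 27.7 ± 1.08 FPKM with exosomes, against 30.5 ± 0.631 with PBS (log2 change −0.13 ± 0.05, adjusted p = 0.0418). Suv420h2, which adds further methyl groups, was 6.00 ± 0.522 with exosomes, against 4.99 ± 0.339 with PBS (log2 change 0.23 ± 0.07, adjusted p = 0.0293). Both calls were lost without exosome replicate 1, PBS replicate 1 or PBS replicate 3, with adjusted p of 0.105 to 0.117 for Kmt5a and 0.0738 to 0.103 for Suv420h2. The Kmt5a call was also lost without exosome replicate 3 (0.116), and that of Suv420h2 without exosome replicate 2 (0.0948). Suv420h1 was 4.06 ± 0.280 FPKM with exosomes, against 4.26 ± 0.114 with PBS (adjusted p = 0.469).

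Of 7 acetyltransferases 2 rose and 0 fell. Kat2b (Entrez 18519), or PCAF, a coactivator enzyme, had 11.8, 12.6 and 12.4 FPKM with exosomes, against 8.58, 9.07 and 7.83 with PBS (log2 change 0.48 ± 0.06, adjusted p = 0.000268). Its relative Kat2a, or GCN5, was 15.3, 15.4 and 14.9 FPKM with exosomes, against 18.4, 15.2 and 18.02 with PBS. The Kat2a groups overlapped through PBS replicate 2 (adjusted p = 0.0717, and 0.0044 without that library). Kat6b (Entrez 54169), a MYST family enzyme for histone H3, rose, with 5.26, 5.31 and 5.21 FPKM with exosomes, against 3.65, 4.41 and 3.62 with PBS (log2 change 0.36 ± 0.07, adjusted p = 0.00332). Its relative Kat6a was 9.78 ± 0.427 FPKM with exosomes, against 10.8 ± 0.0965 with PBS (log2 change −0.13 ± 0.05, adjusted p = 0.0651). The authors' deposited table calls both Kat2a and Kat6a lower, with folds of 0.816 and 0.879. Kat5, Kat7 and Kat8 did not pass, although Kat8 did without PBS replicate 2 (adjusted p = 0.0162).

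Class IIa deacetylases, which shuttle between nucleus and cytoplasm and repress MEF2 target genes, included 2 raised members out of 3 tested. Hdac4 (Entrez 208727) had 8.01, 8.74 and 8.51 FPKM with exosomes, against 5.83, 6.08 and 5.76 with PBS (log2 change 0.45 ± 0.05, adjusted p = 0.000222). Hdac5 (Entrez 15184) had 14.1, 12.8 and 12.8 FPKM with exosomes, against 10.4, 10.5 and 10.2 with PBS (log2 change 0.33 ± 0.05, adjusted p = 0.00121). In both genes every exosome library was above every PBS library, and 55.6% of all tested genes had groups wholly apart in either direction. Hdac7 was 14.2 ± 0.255 FPKM with exosomes, against 14.5 ± 0.130 with PBS (log2 change −0.03 ± 0.04, adjusted p = 0.605). Hdac9 stayed under 1 FPKM and was not tested, at 0.941, 0.818 and 0.712 FPKM with exosomes and 0.641, 0.549 and 0.600 with PBS. The authors' deposited table calls Hdac9 higher, with a fold of 1.38 (adjusted p = 0.00141).

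The class I deacetylases Hdac1, Hdac2 and Hdac3, the catalytic subunits of the main nuclear corepressor complexes, were the most abundant HDAC genes and did not pass. Hdac2 was 82.4 ± 2.34 FPKM with exosomes and 76.6 ± 1.08 with PBS, a log2 change of 0.10 ± 0.04 with groups that did not overlap (adjusted p = 0.0704). Hdac1 was 25.0 ± 0.641 with exosomes, against 25.4 ± 0.246 with PBS (adjusted p = 0.666), and Hdac3 was 33.8 ± 0.836 with exosomes, against 32.2 ± 2.09 with PBS (adjusted p = 0.317). Hdac8, at 0.534, 0.515 and 0.638 FPKM with exosomes and 0.359, 0.356 and 0.374 with PBS, was not tested here. The authors' deposited table calls it higher, with a fold of 1.51 (adjusted p = 2.56e-05). That table gives it mean normalized counts of 305 with exosomes and 202 with PBS, so its low FPKM is uncertain. Without the filter on low values 2 members of the class I and IV group were raised, against 1 as reported. The class IIb genes Hdac6, a cytoplasmic tubulin deacetylase, and Hdac10, a polyamine deacetylase, had overlapping groups and did not pass (adjusted p = 0.592 and 0.734).

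Among the sirtuins the members of the mitochondrial branch were higher with exosomes. Sirt3 (Entrez 64384), the main mitochondrial deacetylase, had 2.06, 2.39 and 2.40 FPKM with exosomes, against 1.35, 1.62 and 1.34 with PBS (log2 change 0.43 ± 0.08, adjusted p = 0.00193). Sirt4 (Entrez 75387), which acts on mitochondrial metabolic enzymes, had 2.11, 2.32 and 2.18 FPKM with exosomes, against 1.39, 1.70 and 1.54 with PBS (log2 change 0.34 ± 0.07, adjusted p = 0.00457). Sirt5, the desuccinylase, was too low to be tested, at 0.730, 1.00 and 0.936 FPKM with exosomes and 0.595, 0.524 and 0.365 with PBS. In all 3 genes the groups did not overlap, a separation that 55.6% of all tested genes also show. The authors' deposited table calls all 3 higher, with folds of 1.52, 1.41 and 1.69 and adjusted p of 0.0168, 0.00251 and 0.00202. These are low genes, and that table gives Sirt3 mean normalized counts of only 99.2 with exosomes and 65.1 with PBS.

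The sirtuins outside mitochondria changed less. Sirt2, mainly cytoplasmic, was 17.7 ± 0.616 FPKM with exosomes, against 15.8 ± 0.517 with PBS (log2 change 0.15 ± 0.05, adjusted p = 0.0329). The call was lost when any library other than exosome replicate 2 or PBS replicate 3 was left out (0.0774 to 0.101), and the authors' deposited table gives a fold of 1.03 (adjusted p = 0.844). Sirt1, the nuclear deacetylase of histones and p53, had 3.92, 3.93 and 3.53 FPKM with exosomes, against 4.199, 4.12 and 4.19 with PBS (log2 change −0.11 ± 0.06, adjusted p = 0.161). Sirt6 and Sirt7, the chromatin and nucleolar members, did not pass (adjusted p = 0.536 and 0.0831).

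**Figure D2:**
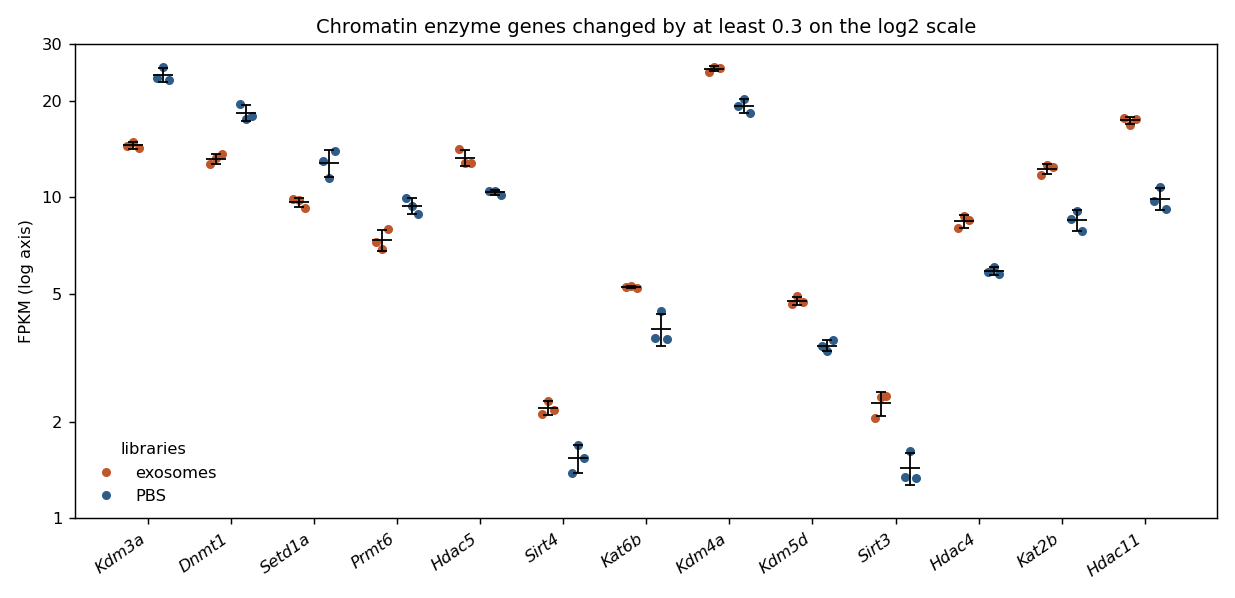
FPKM on a log axis in each library for the 13 called members whose log2 change was at least 0.3 in size, with exosome libraries in orange left of PBS libraries in blue, and horizontal marks with bars for the mean ± SD (n = 3). The 3 exosome values lie below the 3 PBS values in 4 genes and above them in 9, a separation that follows from choosing called genes and that 55.6% of all tested genes also show.

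The arginine methyltransferases had 3 raised and 1 lowered member of 7 tested. Prmt6 (Entrez 99890), which places a repressive arginine mark on histone H3, fell, with 7.23, 6.88 and 7.94 FPKM with exosomes, against 9.91, 9.42 and 8.88 with PBS (log2 change −0.32 ± 0.06, adjusted p = 0.00354). Prmt2 was 12.7 ± 0.803 FPKM with exosomes, against 10.5 ± 0.593 with PBS (adjusted p = 0.00912), and Prmt9 was 10.5 ± 1.29 with exosomes, against 8.29 ± 0.212 with PBS (adjusted p = 0.0108). Prmt7, a monomethylating enzyme, was 8.63, 7.05 and 9.10 FPKM with exosomes and 6.30, 6.77 and 6.41 with PBS (log2 change 0.30 ± 0.08, adjusted p = 0.0153). Exosome replicate 2 lay close to the PBS libraries, and the call was lost without exosome replicate 1, exosome replicate 3 or PBS replicate 1 (adjusted p = 0.0552 to 0.0589). Prmt1 and Prmt5, the principal enzymes for asymmetric and symmetric dimethylation, did not pass. Prmt1 was 56.7 ± 3.15 FPKM with exosomes, against 58.1 ± 2.85 with PBS (adjusted p = 0.633), and Prmt5 was 12.4 ± 0.623 with exosomes, against 13.2 ± 0.766 with PBS (adjusted p = 0.232). Prmt3, which methylates a ribosomal protein, just missed the threshold at 16.9 ± 0.984 FPKM with exosomes, against 18.9 ± 0.881 with PBS (adjusted p = 0.0519). It passed without exosome replicate 3 (0.0338) and without PBS replicate 2 (0.0334), and the authors' deposited table calls it lower, with a fold of 0.874 (adjusted p = 0.0464). Prmt8 was at most 0.0577 FPKM.

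The members were also grouped by the mark they act on, a grouping made after the values were seen. Removers of lysine 4 methylation had 3 raised, 0 lowered and 3 not past of 6, and its writers 1 raised, 1 lowered and 5 not past of 7. The raised removers were Kdm5d, Kdm5b and Kdm1b. The Kdm5b call was lost without PBS replicate 1, and that of Kdm1b without any library other than PBS replicate 2. How reads were split between Kdm5d and Kdm5c is uncertain. For lysine 9 methylation the removers had 1 raised, 1 lowered and 3 not past of 5 tested, and of the 4 writers 0 passed. For acetylation the removers (HDAC and SIRT genes) had 6 raised and 0 lowered of 15 tested, with a median log2 change of 0.10. Those 6 were Hdac4, Hdac5, Hdac11, Sirt2, Sirt3 and Sirt4. Sirt3 and Sirt4 are known mainly as mitochondrial enzymes and Sirt2 as a cytoplasmic one, so that this count is not one of nuclear histone deacetylases alone. The Sirt2 call was lost when some single libraries were left out, and the class I genes Hdac1, Hdac2 and Hdac3 did not pass. The acetylation writers had 2 raised and 0 lowered of 7, with a median log2 change of 0.11. In the same test 25.4% of all tested genes were raised and 18.4% lowered, with a median log2 change of 0.04.

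Levels of some related enzymes are also given relative to each other, for pairs picked with the values known, most of them a called member beside one that did not pass or moved the other way. That the groups lie apart therefore follows from the choice of pairs and says nothing of how common it is. The ratio of Dnmt1 to Dnmt3a FPKM was 2.88, 2.73 and 2.90 in the exosome libraries and 5.28, 4.58 and 5.07 in the PBS libraries. The ratio of Kdm3a to Kdm3b was 1.48 ± 0.0894 with exosomes and 2.44 ± 0.110 with PBS. For Kat2a to Kat2b it was 1.24 ± 0.0518 with exosomes and 2.04 ± 0.323 with PBS, and for Setd1a to Setd1b 2.73 ± 0.132 with exosomes and 3.98 ± 0.274 with PBS. The ratio of Ezh2 to Ezh1 was 1.97, 1.97 and 1.94 with exosomes and 2.58, 2.37 and 2.05 with PBS. No test was made of the ratios. A ratio of FPKM does not change when a library is rescaled as a whole.

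**Figure D3:**
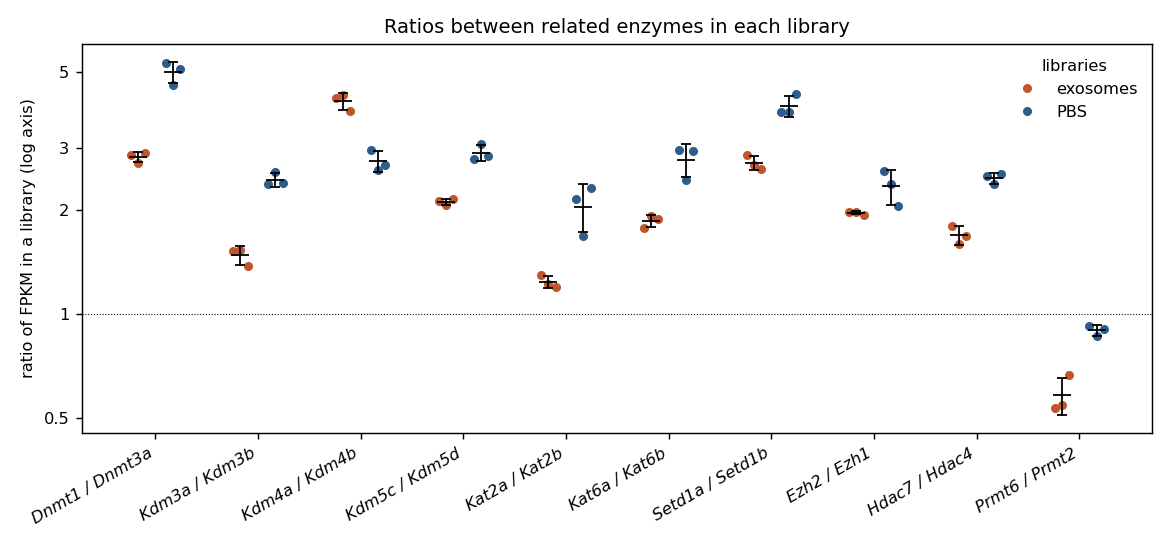
Ratio of the FPKM of 2 related enzymes within each library, on a log axis, for 10 pairs, with exosome libraries in orange left of PBS libraries in blue and the mean ± SD (n = 3). The dotted line marks a ratio of 1. The ratio Dnmt1 / Dnmt3a averages 2.84 with exosomes and 4.98 with PBS, and Kdm4a / Kdm4b is the pair drawn here that is higher with exosomes, at 4.11 with exosomes against 2.76 with PBS.

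Chromatin genes outside the rule, taken from 8 lists of enzymes under other names, complex subunits and readers, moved in both directions. Of 118 tested genes 26 were raised, 21 lowered and 71 not past, or 39.8% called, with a median log2 change of −0.0032. Of all tested genes 43.8% were called, 25.4% raised and 18.4% lowered, and the counts of each list below stand beside these shares. The list of demethylases under other names, which also takes in the lysine hydroxylase gene Jmjd6, had 2 raised and 2 lowered of 7. Jmjd6, a JmjC protein that hydroxylates lysine, fell to 14.6 ± 0.380 FPKM with exosomes, against 23.8 ± 1.13 with PBS (log2 change −0.66 ± 0.05, adjusted p = 1.27e-05). Hr, a lysine 9 demethylase best known from hair growth, was 2.19 ± 0.222 with exosomes, against 1.497 ± 0.283 with PBS (adjusted p = 0.0123).

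Among DNA methylation partners and readers 5 of 11 rose and 1 fell, where 25.4% of all tested genes were raised and 18.4% lowered. The gene that fell, named after its values were seen, was Uhrf1, which brings DNMT1 to replicated DNA, with 14.1, 14.8 and 16.97 FPKM with exosomes, against 22.8, 19.0 and 18.6 with PBS (log2 change −0.38 ± 0.09, adjusted p = 0.00764). The largest rises in that list were in Gadd45a, a stress response gene linked to DNA demethylation, and Mbd4, a thymine glycosylase. Gadd45a was 12.54 ± 0.431 FPKM with exosomes, against 7.59 ± 1.19 with PBS (adjusted p = 0.000531), and Mbd4 was 3.59 ± 0.365 with exosomes, against 2.49 ± 0.0834 with PBS (adjusted p = 0.00235).

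Subunits of HDAC corepressor complexes had 7 raised and 3 lowered of 26. Sap30 of the SIN3 complex fell to 7.85 ± 0.962 FPKM with exosomes, against 13.6 ± 0.794 with PBS (log2 change −0.73 ± 0.08, adjusted p = 0.000132), and Rcor2 of the CoREST family rose to 4.79 ± 0.309 with exosomes, against 3.04 ± 0.203 with PBS (0.52 ± 0.07, adjusted p = 0.000328). Polycomb subunits had 5 raised and 3 lowered of 23. Phc2 fell to 10.2 ± 0.369 FPKM with exosomes, against 14.9 ± 0.884 with PBS (adjusted p = 0.000142), while the ubiquitin ligase gene Ring1 was 9.08 ± 0.879 with exosomes, against 7.00 ± 0.294 with PBS (adjusted p = 0.00444).

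COMPASS subunits had 0 raised and 2 lowered of 11, namely Paxip1, at 4.96 ± 0.103 FPKM with exosomes, against 6.85 ± 0.321 with PBS (adjusted p = 0.000495), and the scaffold gene Wdr5, at 13.5 ± 0.446 with exosomes, against 16.1 ± 0.691 with PBS (adjusted p = 0.00506). Bromodomain readers had 3 raised and 4 lowered of 16. Brd2, a reader of acetylated histones, fell to 36.3 ± 1.46 FPKM with exosomes, against 49.1 ± 2.68 with PBS (adjusted p = 0.000273), and the remodelling subunit gene Baz1a to 3.78 ± 0.268 with exosomes, against 5.54 ± 0.547 with PBS (adjusted p = 0.00139). Methyltransferases under other names had 3 raised and 4 lowered of 16, with the largest changes in Mettl4 (0.37 ± 0.07, adjusted p = 0.00232) and Smyd2 (−0.29 ± 0.06, adjusted p = 0.00494). Acetyltransferases under other names had 1 raised and 2 lowered of 8, led by Elp3 (0.31 ± 0.06, adjusted p = 0.00204) and Hat1 (−0.22 ± 0.06, adjusted p = 0.0153).

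The authors' deposited comparison, made from counts, called 19 members raised and 11 lowered of the 80 for which it gives an adjusted p, or 23.8% and 13.8%. Over all genes it called 12.4% raised and 13.5% lowered. Of the 71 members tested here it called 16 raised and 11 lowered, and of the 10274 genes tested here 16.8% and 19.8%. It shares 20 calls in the same direction with the FPKM test. It calls 7 tested members that did not pass here and 3 that were not tested here, while 4 members (Prmt2, Prmt7, Sirt2 and Suv420h2) were called here alone. Log2 changes in FPKM were higher than the log2 of the deposited folds by a median of 0.04 in the tested members and 0.04 in all tested genes.

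**Figure D4:**
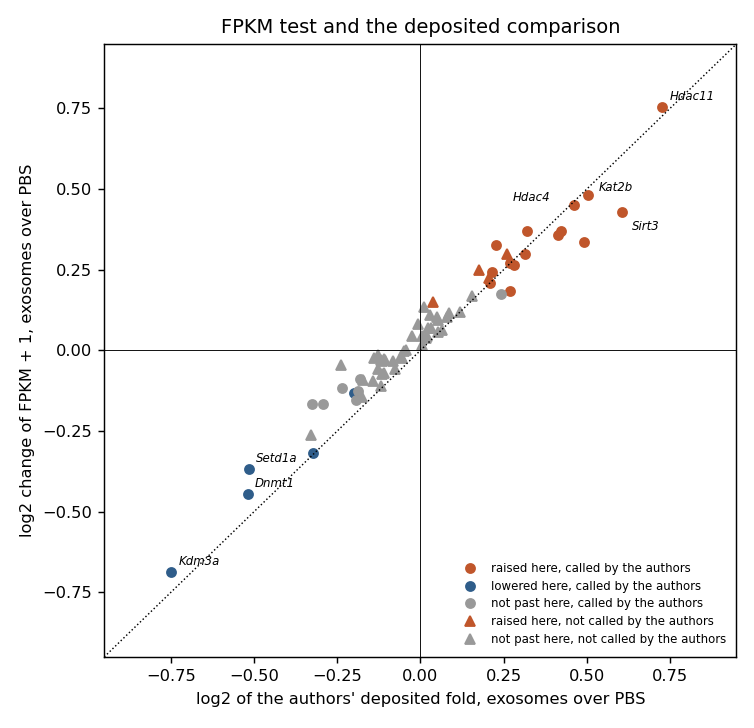
Log2 change of FPKM + 1 from the test here (vertical) against the log2 of the authors' deposited fold (horizontal), both exosomes over PBS, for 70 tested members. Circles were called in the deposited table and triangles were not, and the dotted line marks equal values. Setdb2, with a deposited fold of 0.123, lies outside the axes.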

How the data were processed

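Per the labels' protocols, RNA was isolated with mirVana reagents and TruSeq Stranded mRNA libraries were sequenced. DESeq, HTSeq, Cufflinks, StringTie, HISAT2, Bowtie2, SAMtools and Trimmomatic appear in the authors' processing notes, with the mm9 build and without versions, order or roles. The authors deposited 1 expression value per gene and library, read here as FPKM. The same table holds mean normalized counts of each group, deposited by the authors (a signal rather than counts of a library), their fold (ratio) of exosomes over PBS, and a p-value and adjusted p-value, per the file headers. Library columns were matched to samples by the sample numbers in the labels.

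The test took genes that reached 1 FPKM in no fewer than 3 libraries and was made on log2(FPKM + 1) with limma 3.58.1 in R 4.3.3 (trend, robust, group as the only term, two-sided), adjusted over all genes. All 71 tested members reached 1 FPKM in all 6 libraries. Fold changes on this scale understate those of low genes. Errors are SD for FPKM and SE for log2 changes. The test was checked on simulated data, where it recovered 43.6% of log2 changes of 0.25, 84.8% of 0.5 and 99.2% of 1. The simulation changed far fewer genes than were called here, and none of the lowest. A gene that did not pass may therefore still have changed by a small amount. No count test was run, since the columns used hold no counts for single libraries. Members and lists were chosen with earlier results of these data known. Called members with a log2 change of at least 0.3 in size, and the 2 called genes of largest change in each other list, are named by rule. Other members are described within their families. The sources used here do not give the strand setting of the counting. In GENCODE vM21 (GRCm38, used for names only) exons of 27 of 80 members overlap another gene, so their values are uncertain. Among them are 10 called members, namely Hdac11, Hdac4, Hdac5, Kdm1b, Prmt2, Prmt6, Prmt7, Setd1a, Setd7 and Sirt3. Alternatives tried were other pseudocounts, filters and scalings, variances without trend, the replicate number as a block, and leaving out each library.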

Additional observations from a re-analysis of the deposited data

How the results depend on the processing

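Under 14 alternatives the raised members numbered 13 to 19 and the lowered members 4 to 7, against 19 and 5 as reported. Over all genes the raised numbered 1813 to 2653 and the lowered 1403 to 2048. Leaving out a library gave 14 to 19 raised and 4 to 7 lowered members. Of 24 called members 18 kept their call in every alternative that tested them, and 0 changed sign. The other 6 were Kdm1b, Kdm5b, Kmt5a, Prmt7, Sirt2 and Suv420h2. Of the 47 members that did not pass, 4 (Kat2a, Kat8, Prmt3 and Tet2) passed in some alternative. Requiring 5 FPKM left 6 of the called members untested. Scaling libraries to a common median moved the median change of all tested genes to 0.02, against 0.04 as deposited. A count test by DESeq2 and edgeR, planned in case counts of each library were given, was not run.

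The replicate numbers in the titles were not shown to pair the libraries, since deviations from the group means correlated at −0.12, −0.02 and −0.29 between same-numbered libraries across genes, which are not independent replicates. With a replicate block 17 members were raised and 4 lowered, and 2288 and 1626 of all genes.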
